A study of Mus musculus with 24 samples.

Results

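A set of 32 genes known from the endoderm of the visceral yolk sac was followed through the developing lower jaw of the mouse. The set was put together from genes that were very bright on 1 array of the series, E10 p63-/- replicate 3, and more weakly raised on E10 p63-/- replicate 2, so all values of the E10 p63-/- arrays are given as a description, with no test. Of the 32 genes, 31 had a probe (50 probes in all, Soat2 having none) and 28 passed the detection filter, out of 19057 genes with a probe and 12698 that passed. The 3 members with a probe that did not pass are Gata4, Fgb and Serpina1a.

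Expression was measured on 24 Illumina bead arrays, each with the total RNA of the mandibular prominence of 1 embryo, in 8 groups of 3 embryos: p63-/- and p63+/- at E10, E11, E12 and E13. Both genotypes carry the Trp63tm2Brd allele on a B6.129S7 background, on both chromosomes in p63-/- embryos and on 1 in p63+/- embryos, so the p63+/- group is heterozygous and not wild type. The replicates of a group came from different litters, the p63-/- and p63+/- embryos being littermates, and tissue was not pooled. Trp63 itself read 8.97 to 9.89 on the 12 p63-/- arrays, against 10.19 to 11.32 on the 12 p63+/- arrays, with no overlap, and whether its probe lies in the altered part of the gene is not known here. All levels are normalized log2 intensities, on which an unexpressed probe reads near 5, and differences are on the same log2 scale. The 9 marker genes of jaw mesenchyme were detected on all 24 arrays.

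The visceral endoderm is the epithelium of the yolk sac that faces the maternal side. It takes up maternal proteins and lipids through a receptor complex of cubilin, amnionless and megalin, and it secretes serum proteins such as alpha-fetoprotein, transthyretin, apolipoproteins, transferrin and retinol-binding protein before the liver takes over that task. Hnf4a, Gata4 and Gata6 are transcription factors of this tissue, and several of its secreted products are later shared with hepatocytes. Apoe, Trf, Dab2, Lrp2, Cited1, Ctsz and Gata6 are also expressed in other embryonic tissues, so the set is not a list of genes specific to the yolk sac.

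On E10 p63-/- replicate 3 nearly the whole set was bright. It was the highest of the 24 arrays for 28 of the 31 measured members, by more than 1 on the log2 scale for 25, and 29 of 31 were detected on it. Of the 28 members that passed the filter, 26 exceeded the E10 p63+/- mean by more than 1, where 5.03% of all genes did so, and the members were chosen on this array. The median difference of the 28 members was 6.08, against -0.10 over all genes. On E10 p63-/- replicate 2, 11 members exceeded 1 (1.77% of all genes) with a median of 0.74, and on replicate 1 none of the 28 did (0.638% of all genes), with a median of 0.01. The p63-/- group at E10 thus held 1 very bright, 1 moderately raised and 1 ordinary embryo for this set, and the group mean describes none of them. The mean over the 3 p63-/- arrays exceeded the p63+/- mean by more than 1 for 22 members (1.65% of all genes), whereas 6 members did so without replicate 3 (0.457% of all genes). RNA was taken from whole prominences, so more cells of a type and more RNA per cell cannot be told apart.

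**Figure D1:**
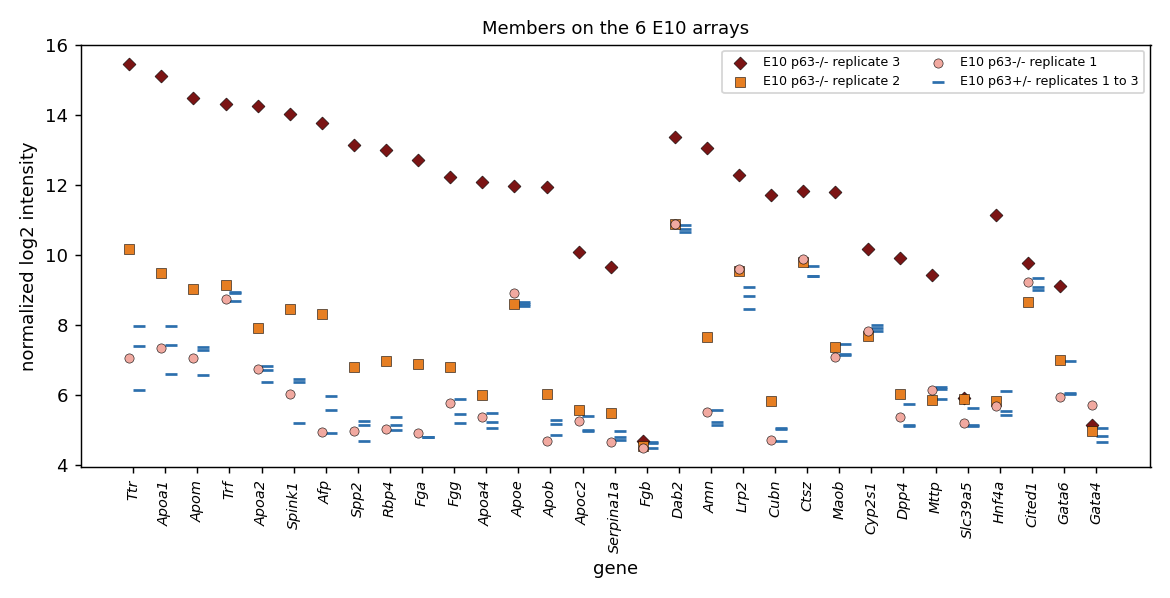
Normalized log2 intensity (vertical axis) of the brightest probe of the 31 measured members (horizontal axis, by role and then by level) on the 6 E10 arrays, with p63-/- symbols left of the p63+/- bars. Replicate 3 (diamonds) stands above all other E10 arrays for every member from Ttr to Serpina1a, replicate 2 (squares) lies between for many secreted proteins such as Ttr at 10.17, and replicate 1 (circles) lies among or near the p63+/- bars.

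Most of the members code for secreted proteins, and 16 of the 17 exceeded the p63+/- mean by more than 1 on replicate 3. Ttr, the thyroid hormone and retinol-binding protein carrier transthyretin, read 7.08, 10.17 and 15.47 on p63-/- replicates 1, 2 and 3 at E10, against 6.17, 7.42 and 7.98 on the p63+/- arrays. Replicate 3 was 312-fold above the p63+/- mean and replicate 2 was also above every p63+/- array, whereas replicate 1 lay within their range. Afp, the fetal serum protein alpha-fetoprotein, read 4.97, 8.33 and 13.77 on the p63-/- arrays, against 4.94, 5.58 and 6.00 on the p63+/- arrays. It was detected on 1 of 3 p63+/- arrays, so its excess on replicate 3 is given as at least 260-fold (the bound takes the lowest detected signal in place of undetected ones).

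Of the apolipoproteins, which package lipids for export, Apoa1, Apom and Apoa2 were intermediate on replicate 2, as Ttr was, and Apoc2 and Apoe were not. Apoa1 read 7.36, 9.49 and 15.12 on the p63-/- arrays, against 6.62, 7.43 and 7.99 on the p63+/- arrays. Apom read 7.07, 9.04 and 14.49 on the p63-/- arrays, against 6.59, 7.38 and 7.30 on the p63+/- arrays. For both, replicates 2 and 3 lay above every p63+/- array and replicate 1 did not. Apoa2 read 6.76, 7.92 and 14.26 on the p63-/- arrays, against 6.38, 6.71 and 6.85 on the p63+/- arrays. Apoa4 (12.09), Apob (11.94) and Apoc2 (10.11) were bright on replicate 3 and were detected on none of the 3 E10 p63+/- arrays, which put replicate 3 at least 89.7-fold, at least 81.0-fold and at least 22.7-fold higher. Apoc2 was not raised on replicate 2, where its brighter probe read 5.59 and was not detected and its other probe read 4.78, the lowest of the 6 E10 arrays. Apoe, which many tissues make, read 8.94, 8.63 and 11.99 on the p63-/- arrays, against 8.57, 8.61 and 8.68 on the p63+/- arrays. Replicate 2, which was raised for Apoa1 and Apom, was within the p63+/- range for Apoe.

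Rbp4, the serum carrier of retinol, read 5.05, 6.98 and 13.02 on the p63-/- arrays, against 5.15, 5.00 and 5.39 on the p63+/- arrays, where it was never detected, so that replicate 3 was at least 171-fold higher. Trf, the iron carrier transferrin, read 8.76, 9.14 and 14.31 on the p63-/- arrays, against 8.94, 8.69 and 8.94 on the p63+/- arrays, and replicate 3 was 43.8-fold above the p63+/- mean. Spp2, a secreted phosphoprotein, read 4.98, 6.81 and 13.14 on the p63-/- arrays, against 4.69, 5.28 and 5.16 on the p63+/- arrays. Spink1, a secreted trypsin inhibitor, read 6.05, 8.47 and 14.04 on the p63-/- arrays, against 5.22, 6.39 and 6.47 on the p63+/- arrays. For Spp2 and Spink1 replicate 2 lay between the p63+/- arrays and replicate 3, while Trf was far above the p63+/- arrays on replicate 3 alone.

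The alpha and gamma chains of fibrinogen could be read on the arrays, and the beta chain could not. Fga, the alpha chain, read 4.94, 6.90 and 12.72 on the p63-/- arrays, against 4.82, 4.80 and 4.83 on the p63+/- arrays, at least 139-fold higher on replicate 3, and its second probe read 12.46 there. Fgg, the gamma chain, read 5.78, 6.82 and 12.23 on the p63-/- arrays, against 5.48, 5.22 and 5.90 on the p63+/- arrays. The single probe of Fgb, the beta chain, was not detected on any of the 24 arrays and read 4.70 on replicate 3, so it is uninformative about that chain. Serpina1a, a serum protease inhibitor, read 9.68 on replicate 3 and was detected on that array alone. The Serpina1 genes are near-identical copies, so which copy its probe measured is uncertain.

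The endocytic genes split into those silent and those already expressed in the jaw. Amn, the membrane anchor amnionless, read 5.52, 7.67 and 13.06 on the p63-/- arrays, against 5.15, 5.59 and 5.24 on the p63+/- arrays, and replicate 3 was at least 176-fold higher. Cubn, its partner receptor cubilin, read 4.74, 5.85 and 11.71 on the p63-/- arrays, against 4.70, 5.07 and 5.03 on the p63+/- arrays, at least 69.1-fold higher on replicate 3. Both were undetected on the E10 p63+/- arrays and were raised on replicate 2 less far than on replicate 3. Lrp2, the receptor megalin, read 9.61, 9.55 and 12.30 on the p63-/- arrays, against 9.11, 8.84 and 8.46 on the p63+/- arrays. All 3 p63-/- arrays lay above all 3 p63+/- arrays for Lrp2, including replicate 1. The same held for Ctsz and, by its brightest probe alone, for Dab2. How many of all genes were separated in this way was not counted, and the members were chosen on these arrays. Dab2, the adaptor that links these receptors to clathrin, read 10.90, 10.88 and 13.37 on the p63-/- arrays, against 10.75, 10.68 and 10.87 on the p63+/- arrays, a 6.09-fold excess on replicate 3.

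Among the enzymes and transporters, Maob, a mitochondrial monoamine oxidase, read 7.11, 7.37 and 11.82 on the p63-/- arrays, against 7.16, 7.46 and 7.19 on the p63+/- arrays. Ctsz, a lysosomal protease, read 9.91, 9.82 and 11.85 on the p63-/- arrays, against 9.42, 9.40 and 9.71 on the p63+/- arrays. Mttp, which loads lipid onto apolipoprotein B, read 6.14, 5.88 and 9.43 on the p63-/- arrays, against 6.23, 5.90 and 6.17 on the p63+/- arrays. Replicate 3 stood alone for Maob and Mttp. On replicate 2 none of the 6 measured genes of this class exceeded the p63+/- mean by more than 1. Of the secreted proteins 10 of 17 did, and 1.77% of all genes. The members were chosen on these arrays, and several of these enzymes were already expressed in the jaw. The counts are therefore no result about a difference between the classes. Cyp2s1, a cytochrome P450, and Dpp4, a membrane peptidase, read 10.17 and 9.92 on replicate 3, against p63+/- means of 7.92 ± 0.09 and 5.35 ± 0.35 (SD, n = 3). Dpp4 was detected on 1 of those 3 arrays. For Slc39a5, a zinc transporter, the probe with the highest mean over the series read 5.92 on replicate 3 and barely differed from other arrays, whereas its 3 other probes read 9.28, 10.31 and 10.43 there and were detected on that array alone.

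The transcriptional regulators were mixed. Hnf4a, a nuclear receptor that drives apolipoprotein and transthyretin genes, read 5.71, 5.85 and 11.17 on the p63-/- arrays, against 5.56, 6.13 and 5.43 on the p63+/- arrays. Gata6 read 5.95, 7.01 and 9.12 on the p63-/- arrays, against 6.06, 6.99 and 6.05 on the p63+/- arrays. Gata6 on replicate 3 was above every other E10 array but below 4 E13 arrays and 1 E12 array. Gata4 read 5.72, 4.98 and 5.17 on the p63-/- arrays, against 4.66, 4.84 and 5.07 on the p63+/- arrays, and was detected on 1 of the 24 arrays. Cited1, a transcriptional co-activator that the jaw expressed on every array, read 9.24, 8.68 and 9.80 on the p63-/- arrays, against 9.02, 9.09 and 9.36 on the p63+/- arrays. On replicate 3 Cited1 and Gata4 lay within 1 of the p63+/- mean. Of all members, Cyp2s1 (a difference of 2.24) was the lowest above that limit and Cited1 (0.64) the highest below it.

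**Figure D2:**
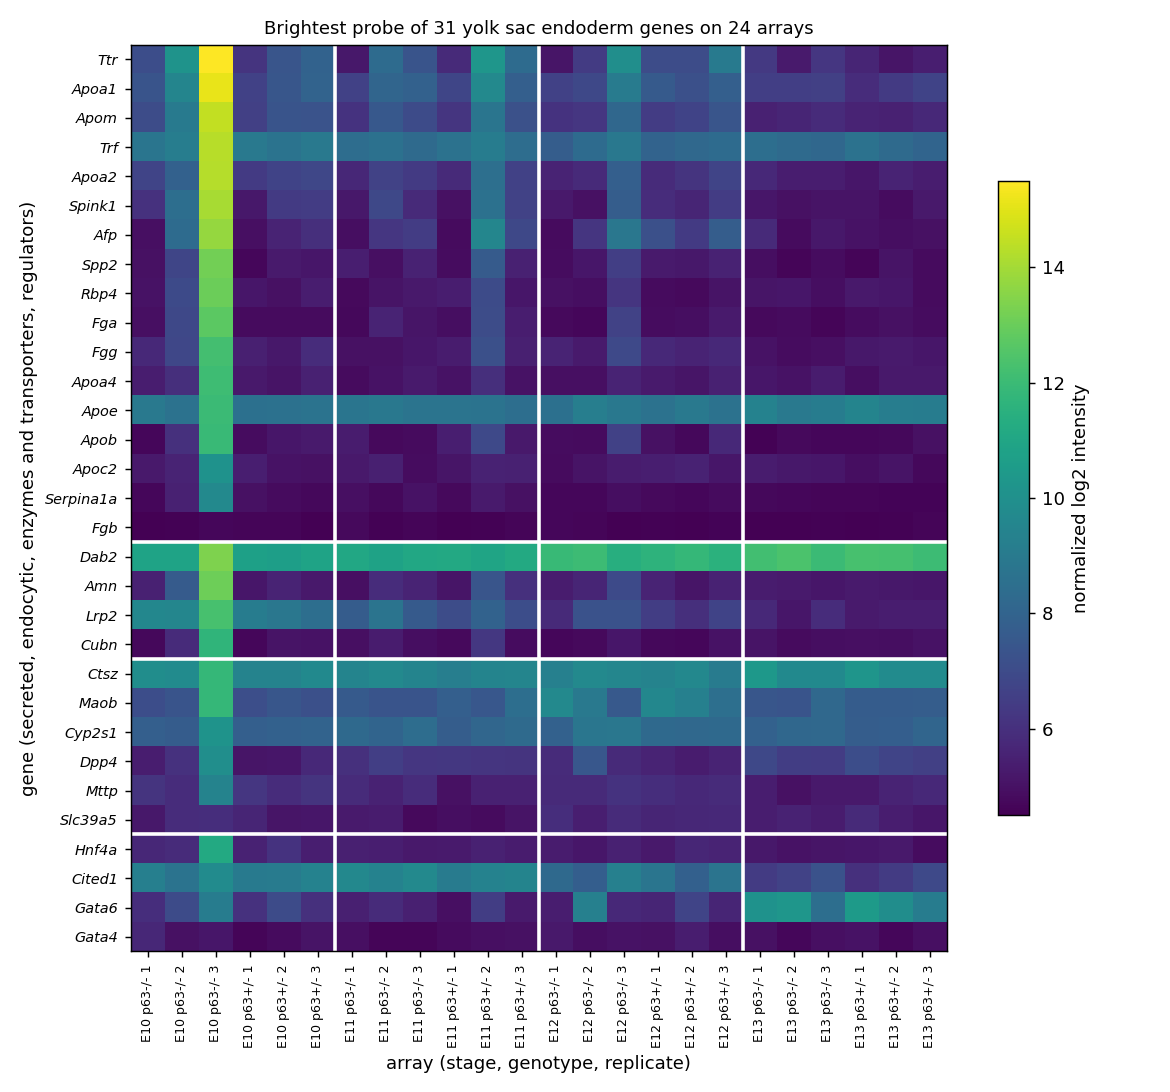
Normalized log2 intensity (colour) of the brightest probe of 31 members (rows, by role) on the 24 arrays (columns, by stage, with p63-/- left of p63+/-). The column of E10 p63-/- replicate 3 is bright over almost all rows, E10 p63-/- replicate 2, E11 p63+/- replicate 2 and E12 p63-/- replicate 3 show paler columns over the secreted rows, and Gata6, Dab2, Lrp2 and Cited1 change with stage in both genotypes.

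Promoters of the members, whatever their level on replicate 3, were read from the RefSeq promoter table (build GRCm38.p6). It held 25 of the 32 members in 34 promoters and lacked Ttr, Trf, Gata4, Gata6, Spink1, Soat2 and Maob. In the 250 bases before the start site, the core GTTAAT of the HNF1 site, searched on both strands, occurred in 9 of the 34 promoters (26.5%), against 6.43% of the 32851 promoters in the table. These 9 belong to Afp, Apoc2, Apoe, Dab2, Fga, Fgb, Hnf4a, Serpina1a and Slc39a5, of which Fgb was not detected on any array. The GATA motif AGATAA was in 11.8% of member promoters and 9.99% of all promoters, the FOXA motif TGTTTAC in 5.88% and 3.17%, and the HNF4 motif CAAAGTCCA in 0 of 34 and 0.384%. None of these motifs contains another. A match describes the letters only. Shown are the promoters of Afp (chr5:90490464-90490713, plus strand), Fga (chr3:83025903-83026152, plus strand) and Dab2 (chr15:6386498-6386747, plus strand). Afp was chosen by name. Fga and Dab2 were chosen because their promoters hold a match and they were bright on replicate 3, so the match in them is no result. Fga was detected on 4 of the 24 arrays, Afp on 13 and Dab2 on all 24. Capitals mark the HNF1 core site, which ends 100 bases before the start in Afp, 38 in Fga (reverse strand) and 60 in Dab2.
Afp: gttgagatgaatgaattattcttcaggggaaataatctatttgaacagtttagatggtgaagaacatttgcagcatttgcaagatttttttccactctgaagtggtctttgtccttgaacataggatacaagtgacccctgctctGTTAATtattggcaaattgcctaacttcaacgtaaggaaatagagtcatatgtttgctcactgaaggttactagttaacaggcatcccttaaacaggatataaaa
Fga: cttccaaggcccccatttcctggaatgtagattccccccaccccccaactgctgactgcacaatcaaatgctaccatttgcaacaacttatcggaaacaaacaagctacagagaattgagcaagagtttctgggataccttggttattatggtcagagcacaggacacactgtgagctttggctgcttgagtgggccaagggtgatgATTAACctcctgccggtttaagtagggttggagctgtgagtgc
Dab2: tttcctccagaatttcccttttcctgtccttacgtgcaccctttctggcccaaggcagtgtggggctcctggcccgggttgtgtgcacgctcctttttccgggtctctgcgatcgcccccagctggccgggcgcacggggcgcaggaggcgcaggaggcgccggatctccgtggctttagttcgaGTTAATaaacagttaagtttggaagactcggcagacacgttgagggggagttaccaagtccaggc

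Other genes of the yolk sac endoderm that are not in the set were also bright on E10 p63-/- replicate 3. Of 24 such genes with a probe, 19 exceeded the p63+/- mean by more than 1 (5.03% of all genes), with a median of 4.23. This list was written with earlier results of these data known, so the count is a description and no independent support. Pdzk1, Serpinf2, Ambp and Rhox5 of this list also stand in the ranking below. Their summed level was 16.15 on replicate 3, against 12.97 to 13.09 on the p63+/- arrays. Genes outside the set were ranked by how far replicate 3 exceeded the highest of the 21 arrays outside the E10 p63-/- group, with RIKEN, Gm and LOC symbols left out. The leading genes were Pdzk1, Serpinf2, Serpina1b, Ambp, Serpina1d, Slc23a3, Slc13a4, Fbp2, Slc27a2, Cfi, Rhox5, Timd2, Fmr1nb, Kng1 and Fxyd2. The ranking does not measure likeness to the members on other arrays: on replicate 2, Cfi and Rhox5 were not above every p63+/- array. Pdzk1, a scaffold protein of absorptive epithelia, read 5.00, 6.36 and 12.88 on the p63-/- arrays, against 4.94, 5.61 and 5.52 on the p63+/- arrays. Rhox5, a homeobox gene on chromosome X, read 8.33, 8.35 and 13.70 on the p63-/- arrays, against 8.00, 8.36 and 8.16 on the p63+/- arrays. Among the 286 genes (2.25% of all) that exceeded those 21 arrays by more than 1 on replicate 3 were 24 of the 28 members.

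Markers of other tissues were read on the same array, and their part in the result was not tested. Of 12 hepatocyte genes, 7 were detected on replicate 3 and 3 exceeded 1, namely Itih3 (3.22), Hpx (1.72) and Arg1 (1.16). The probes of the others, Alb, Cps1, Tat, Cyp3a11 and Cyp2e1, were not detected on any array of the series, so their silence on replicate 3 is uninformative. Arg1 was also higher on replicates 1 and 2 (1.19 and 0.94). The summed hepatocyte level was 10.58, 10.40 and 10.86 on p63-/- replicates 1, 2 and 3, against 9.73 to 9.83 on the p63+/- arrays. Of 8 parietal endoderm genes 1 exceeded 1 (Sparc, 1.04), with a summed level of 14.03 on replicate 3, against 13.64 to 13.78. None of 7 trophoblast genes did, with sums of 9.37 and, on the p63+/- arrays, 8.83 to 9.74. Of 9 gut and pharyngeal endoderm genes 4 exceeded 1: Foxa3 (6.01), Cdx2 (3.18), Tff3 (3.05) and Sst, which was also raised on replicates 1 and 2 (7.96 and 7.59, against 4.68 to 5.60 on the p63+/- arrays). Of 6 macrophage genes 2 exceeded 1, Lyve1 (5.20), which also marks endothelium, and Mrc1 (1.05), with a summed level of 10.71 on replicate 3, against 8.68 to 9.40 on the p63+/- arrays. None of 7 endothelial genes exceeded 1. Among 11 simple epithelial genes 7 exceeded 1, but Krt8, a keratin of simple epithelia, was above the p63+/- arrays on all 3 p63-/- arrays: it read 12.92, 12.75 and 13.53, against 11.95, 11.86 and 11.61. The 9 jaw mesenchyme markers had a median difference of -0.65 on replicate 3, and their summed level was 13.84, against 14.39 to 14.58 on the p63+/- arrays.

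The set was next read array by array, each array being compared with the median of the other 5 arrays of its stage, a comparison chosen after the data had been seen. Besides the E10 p63-/- replicates that defined the set, it was raised on 2 further arrays of other stages. On E11 p63+/- replicate 2, 14 of the 28 members exceeded 1 (0.654% of all genes), and on E12 p63-/- replicate 3, 13 did (0.496% of all genes). By the same measure 26 members exceeded 1 on E10 p63-/- replicate 3 (4.82% of all genes) and 11 on E10 p63-/- replicate 2 (1.54% of all genes). Each of the other 20 arrays had between 0 and 2, with 0.126% to 1.8% of all genes raised. The raised arrays therefore include both genotypes and 3 stages, and none is from E13.

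**Figure D3:**
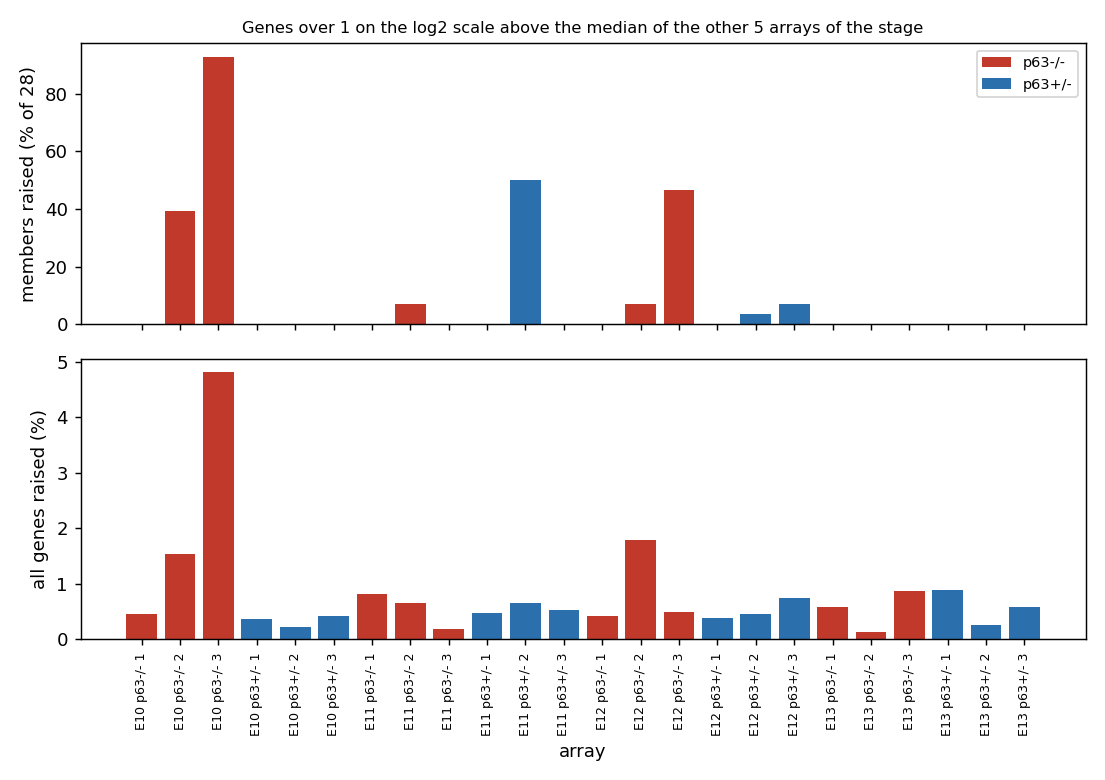
Share of the 28 members (upper panel, %) and of all 12698 genes (lower panel, %) that exceeded the median of the other 5 arrays of the stage by more than 1 on the log2 scale, per array, with p63-/- arrays left of p63+/- arrays within each stage. 4 arrays stand out for the members: E10 p63-/- replicates 2 and 3, E11 p63+/- replicate 2 and E12 p63-/- replicate 3, whereas E12 p63-/- replicate 2 has 1.8% of all genes raised but 2 members.

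Many of the same members exceeded 1 on each of the 3 weaker arrays. The 11 members over 1 on E10 p63-/- replicate 2 were also over 1 on E11 p63+/- replicate 2 and on E12 p63-/- replicate 3: Afp, Ttr, Apoa1, Apoa2, Apom, Rbp4, Fga, Fgg, Spink1, Spp2 and Amn, which are secreted proteins apart from Amn. They are 100% of the members raised on E10 p63-/- replicate 2, 78.6% of those on E11 p63+/- replicate 2 and 84.6% of those on E12 p63-/- replicate 3. The excess of these 11 lay between 1.04 (Fgg) and 2.76 (Afp) on E10 p63-/- replicate 2, between 1.77 (Apom) and 3.31 (Afp) on E11 p63+/- replicate 2, and between 1.31 (Rbp4) and 2.88 (Ttr) on E12 p63-/- replicate 3. Apob was over 1 on the E11 and E12 arrays (1.65 and 1.72), Cubn and Gata6 on the E11 array (1.37 and 1.03) and Cited1 on the E12 array (1.02). By the probe used for each gene, Apoa4, Apoc2, Apoe, Trf, Lrp2, Dab2, Ctsz, Cyp2s1, Mttp, Dpp4, Maob and Hnf4a exceeded 1 on E10 p63-/- replicate 3 but on none of the 3 weaker arrays. The probes of Apoa4 disagreed: its 2 other probes exceeded 1 on E10 p63-/- replicate 2 (1.73 and 1.86) and on E11 p63+/- replicate 2 (2.19 and 2.13), and 1 of them on E12 p63-/- replicate 3 (1.03, the other 0.80). On E10 p63-/- replicate 3 the median excess over the p63+/- mean was 7.40 for secreted proteins and 2.83 for enzymes and transporters. A member with a smaller excess there, or already expressed in the jaw, could less readily pass 1 on a weaker array. Which members passed is therefore partly set by these levels and is no result about a class. The overlap over all genes was not counted.

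Afp shows the pattern over the series. At E11 it read 4.92, 6.25 and 6.45 on the p63-/- arrays, against 4.84, 9.56 and 6.89 on the p63+/- arrays. At E12 it read 4.80, 6.20 and 8.87 on the p63-/- arrays, against 7.20, 6.37 and 7.75 on the p63+/- arrays. At E13 it read 5.80, 4.81 and 5.21 on the p63-/- arrays, against 5.04, 4.90 and 4.99 on the p63+/- arrays, where it was not detected. The genotypes overlapped at each of these stages, and the single highest array belonged to p63+/- at E11 and to p63-/- at E12. Ttr was likewise highest on E11 p63+/- replicate 2 (10.30) and E12 p63-/- replicate 3 (9.94) within their stages.

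**Figure D4:**
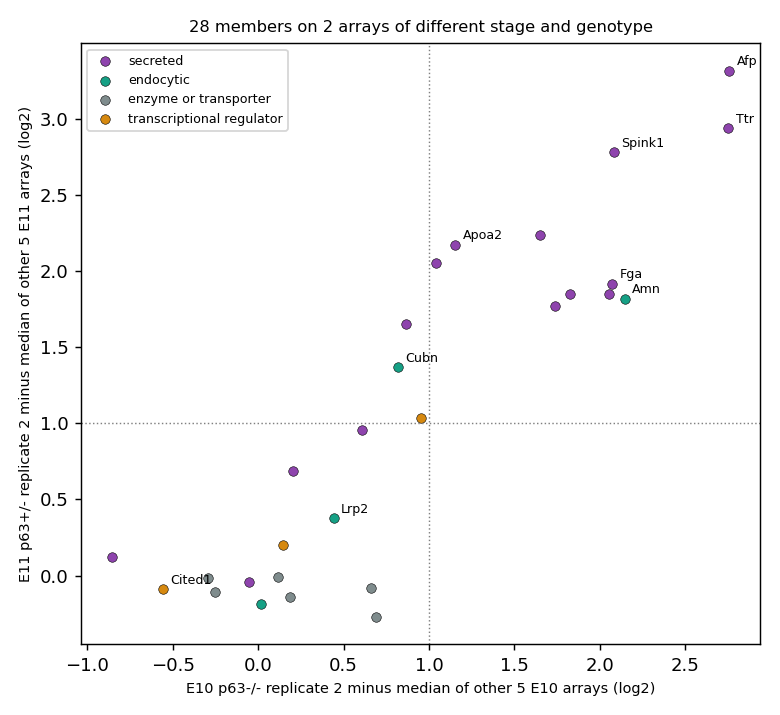
Excess over the median of the other 5 arrays of the stage (log2) for the 28 members on E10 p63-/- replicate 2 (horizontal axis) and E11 p63+/- replicate 2 (vertical axis), coloured by role, with dotted lines at 1. The secreted proteins with Afp, Ttr and Spink1 farthest out lie in the upper right, and enzymes and transporters lie below 1 on both axes.

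Across the 28 members the excess on E10 p63-/- replicate 2 and E11 p63+/- replicate 2 had a Pearson correlation of 0.89, against 0.08 across all genes. It was 0.85 between E11 p63+/- replicate 2 and E12 p63-/- replicate 3 (0.16 across all genes) and 0.75 between E10 p63-/- replicate 2 and E12 p63-/- replicate 3 (0.14 across all genes). The points are genes of the same arrays and share probe brightness, and the members were chosen for being bright together, so these values are a description. The linear signal of 14 members that were bright on E10 p63-/- replicate 3 and not detected everywhere was a small share of their signal on that array: a median of 1.32% on E10 p63-/- replicate 2, 1.83% on E11 p63+/- replicate 2 and 1.10% on E12 p63-/- replicate 3, and at most 0.384% on any other array. Of 9 primitive erythroid genes, 5 exceeded 1 on E10 p63-/- replicate 2 against the other 5 arrays of its stage, 0 on E11 p63+/- replicate 2 and 0 on E12 p63-/- replicate 3. The summed erythroid level was 17.94 on E10 p63-/- replicate 2 (17.61 to 17.79 on the other 5 arrays), 17.92 on E11 p63+/- replicate 2 (17.84 to 17.93) and 17.69 on E12 p63-/- replicate 3 (17.58 to 17.83), and its part in the result was not tested. Of the 24 other yolk sac endoderm genes, 4, 2 and 3 did so on those arrays. On E11 p63+/- replicate 2 the trophoblast sum was 10.05, against 8.83 to 9.36 on the other 5 arrays, with 1 of 7 genes over 1 (Prl2c2, 4.65). On E12 p63-/- replicate 3, 4 of 11 simple epithelial genes exceeded 1 (Krt18 1.76, Krt8 1.62, Cldn3 1.41 and Krt7 1.15), with a sum of 13.33, inside the 12.18 to 13.97 of the other 5 arrays, and Prl2c2 (1.19) and the hepatocyte gene Arg1 (1.02) did so too. The part of these markers in the result was not tested.

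The members were then tested between genotypes at the stages that the choice of genes had not used. No member differed between p63-/- and p63+/- embryos at E11, E12 or E13 by limma's moderated test with Benjamini-Hochberg adjustment over all genes (n = 3 per group), where 0.543%, 0.252% and 0.323% of all genes passed. At an unadjusted p under 0.05, 2, 1 and 0 of the 28 members passed. The detection filter counted all 24 arrays, E10 included, and some members were near the floor at the tested stages. Of the 18 arrays tested, Cubn was detected on 1 and Rbp4 and Fga on 2 each, so they passed the filter only through E10 arrays. Apoa4, Apob, Hnf4a and Spp2 were detected on 3 each. For these members the test could hardly show a difference, and its lack is not a result about them. The medians of the members' differences were -0.30 at E11, 0.12 at E12 and -0.01 at E13, against 0.00 over all genes at each stage. The interaction of genotype with stage over E11 to E13 passed for 0 members and 1 gene (0.00788%), and 1 member, Mttp, had an unadjusted p under 0.05 (0.0186 by limma, adjusted p = 1).

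The spread between embryos was wide for some secreted members, such as Afp and Ttr, and narrower for others, such as Apoe (SE 0.16) and Trf (SE 0.24). Each SE is pooled over the arrays of E11 to E13 and is the same at each stage. Afp differed by -1.22 (SE 1.00) at E11, -0.48 (SE 1.00) at E12 and 0.30 (SE 1.00) at E13, and Ttr by -1.17 (SE 1.17), -0.56 (SE 1.17) and 0.58 (SE 1.17), each p63-/- minus p63+/-. Differences of this size were within the spread between embryos pooled over E11 to E13. At E13 alone the spread of Afp was smaller, with an SD of 0.50 in p63-/- and 0.07 in p63+/- embryos (n = 3 each). The endocytic receptor Lrp2, which was above all p63+/- arrays on all 3 p63-/- arrays at E10, differed by 0.63 (SE 0.39) at E11, 0.38 (SE 0.39) at E12 and 0.26 (SE 0.39) at E13. Its mean was the higher one in p63-/- embryos at each stage, and no stage passed the test (limma adjusted p = 1 at each). Ctsz, which was separated at E10 in the same way, differed by 0.15 at E11, 0.12 at E12 and -0.01 at E13 (SE 0.19 each).

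Between E11 and E13 a few members changed strongly in both genotypes. The sample labels name no slide or batch. A batch that followed stage could not be told apart from stage. In p63-/- embryos 5 of the 28 members (17.9%) passed the test, 2 higher and 3 lower at E13, where 48.9% of all genes passed (23.2% higher and 25.7% lower), and in p63+/- embryos 10 (35.7%) did, 5 higher and 5 lower, where 48.5% of all genes passed (22.8% higher and 25.6% lower). Both shares lie below the background. The 28 include members near the floor at both stages, which passed the filter with the help of E10 arrays. Apoa4, Apob, Rbp4, Cubn, Fga and Spp2 were each detected on none of the E13 arrays and on 1 E11 array. The low shares are therefore partly set by the filter and are not a result about the stage changes of the members. The median difference of the members was -0.18 in p63-/- and -0.58 in p63+/- embryos, against -0.04 over all genes in each.

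Gata6, a zinc finger factor of mesenchyme and endoderm, rose. At E13 it read 10.10, 10.27 and 8.47 on the p63-/- arrays, against 5.48, 5.87 and 5.49 at E11. On the p63+/- arrays it read 10.50, 9.87 and 9.11 at E13, against 4.97, 6.52 and 5.31 at E11. The stages did not overlap in either genotype, and the differences were 4.00 (SE 0.80, limma adjusted p = 0.000826) in p63-/- and 4.23 (SE 0.80, limma adjusted p = 0.000607) in p63+/- embryos. Gata6 was detected on 2 of 3 E11 p63-/- arrays and 1 of 3 E11 p63+/- arrays, so the rise was at least 15.3-fold and at least 14.9-fold. At E12 it read 5.36, 9.27 and 5.78 on the p63-/- arrays, against 5.66, 6.77 and 5.65 on the p63+/- arrays, so that 1 E12 embryo already read near the E13 level.

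Dab2 rose by a smaller step. It read 12.17, 12.39 and 12.01 on the E13 p63-/- arrays, against 11.08, 10.84 and 11.10 at E11, a difference of 1.19 (SE 0.16, limma adjusted p = 4.66e-05). In p63+/- embryos it read 12.28, 12.26 and 12.05 at E13, against 11.13, 10.91 and 11.19 at E11, a difference of 1.12 (SE 0.16, limma adjusted p = 7.06e-05). Its 2 other detected probes differed by 1.13 and 1.01 in p63-/- and by 1.16 and 1.04 in p63+/- embryos, and the remaining probe was not detected on any array.

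Lrp2 and Cited1 fell. Lrp2 read 5.76, 5.15 and 5.88 on the E13 p63-/- arrays, against 7.68, 8.74 and 7.60 at E11, a difference of -2.41 (SE 0.39, limma adjusted p = 0.000179). In p63+/- embryos Lrp2 read 5.28, 5.37 and 5.36 at E13, against 7.06, 7.98 and 7.09 at E11, a difference of -2.04 (SE 0.39, limma adjusted p = 0.00067). It was detected on none of the E13 p63+/- arrays, which makes it at least 3.93-fold lower there, and its 2 other probes were not detected on any array. Cited1 read 6.43, 6.67 and 7.29 on the E13 p63-/- arrays, against 9.65, 9.36 and 9.70 at E11. On the p63+/- arrays Cited1 read 6.00, 6.40 and 6.94 at E13, against 9.07, 9.38 and 9.47 at E11. The differences of Cited1 were -2.77 (SE 0.35, limma adjusted p = 3.32e-05) in p63-/- and -2.86 (SE 0.35, limma adjusted p = 2.49e-05) in p63+/- embryos. These 8 calls, of Gata6, Dab2, Lrp2 and Cited1 in 2 genotypes, held under each of the 28 alternatives run.

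**Figure D5:**
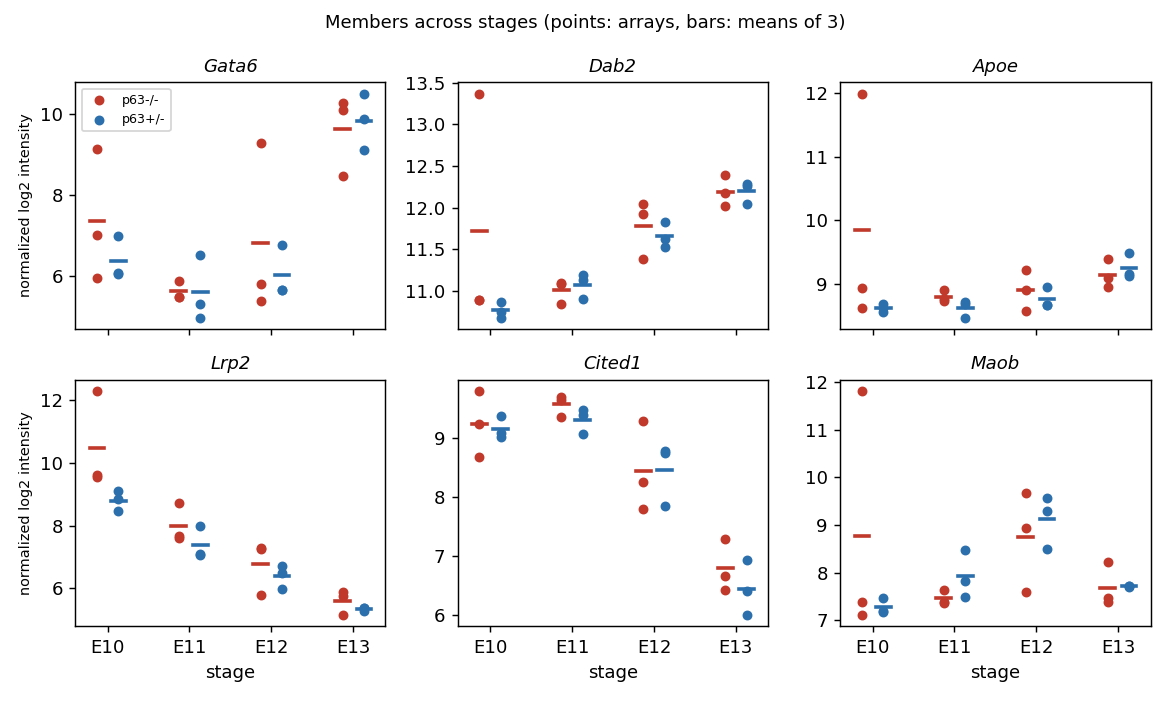
Normalized log2 intensity (vertical axes, which differ between panels) by stage for 6 members, with p63-/- (red, left) and p63+/- (blue, right), points for arrays and bars for means of 3. Gata6 and Dab2 are higher at E13 and Lrp2 and Cited1 lower at E13 than at E11 in both genotypes, and the high point at E10 in each panel except Cited1 and Gata6 lies well above its group, being E10 p63-/- replicate 3.

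Further calls were made in p63+/- embryos. Apoe was higher at E13 by 0.63 (SE 0.16, limma adjusted p = 0.00424), Ctsz by 0.55 (SE 0.19, limma adjusted p = 0.023) and Slc39a5 by 0.53 (SE 0.17, limma adjusted p = 0.0185). Slc39a5 was detected on 1 of 3 E13 arrays and on none at E11, so no fold is given. Its 3 other probes, not detected at either stage, differed by -0.14, 0.07 and -0.01. Apom (-1.78, SE 0.58, limma adjusted p = 0.02), Apoa1 (-1.79, SE 0.66, limma adjusted p = 0.0344) and Apoa2 (-1.61, SE 0.59, limma adjusted p = 0.0344) were lower at E13. The calls of Apoa1, Apoa2, Apom and Slc39a5 were lost without E11 p63+/- replicate 2, the array on which the secreted members were raised. Those of Apoa1, Apoa2, Apom, Slc39a5 and Ctsz were lost without E13 p63+/- replicate 1, those of Apoa1, Apoa2 and Apom without E13 p63+/- replicate 2, that of Apoa1 without E11 p63+/- replicate 3, that of Apoa2 without E13 p63+/- replicate 3 and that of Ctsz without E11 p63+/- replicate 1. The number of members called in p63+/- embryos was 6 without E11 p63+/- replicate 2 and 5 without E13 p63+/- replicate 1. Ttr (-2.77) and Afp (-2.12) had the largest drops in means among members not called (limma adjusted p = 0.0611 and 0.0908). Both passed without E11 p63+/- replicate 1 (limma adjusted p = 0.0139 and 0.0131) and without E12 p63-/- replicate 3 (0.0269 and 0.0493), and Ttr also without E12 p63-/- replicate 1 (0.0467).

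In p63-/- embryos the one further call was Mttp, at -0.55 (SE 0.16, limma adjusted p = 0.0117), at least 1.24-fold lower, with 0 of 3 arrays detected at E13 and 2 of 3 at E11. Without E13 p63-/- replicate 2 it was lost. Whether the stage differences of Apoe, Ctsz, Apom, Apoa1 and Apoa2 differ between the genotypes is addressed by the interaction, which none of them passed.

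Over E11 to E13, the Maob means were highest at E12 in both genotypes, a difference that was not tested. Maob averaged 8.74 ± 1.06 in p63-/- and 9.12 ± 0.56 in p63+/- embryos at E12 (SD, n = 3 each), against 7.45 ± 0.16 in p63-/- and 7.93 ± 0.50 in p63+/- embryos at E11. At E13 the means were 7.68 ± 0.46 in p63-/- and 7.72 ± 0.01 in p63+/- embryos. E12 p63-/- replicate 3, on which the secreted members were raised, had the lowest Maob of its stage (7.59). Of the members, 9 were detected on all 24 arrays: Apoa1, Apom, Apoe, Trf, Dab2, Cited1, Ctsz, Cyp2s1 and Maob. Another 8 were detected on 13 to 23 arrays and 11 on 2 to 12.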

How the data were processed

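The deposited table holds, per the file headers, a linear intensity and a detection p-value for 45281 probes on 24 arrays. The deposited value table of the authors is on a log2 scale (7.62 to 16), and was used as an alternative. The submitters' processing notes list BeadStudio, lumi and RMA and give no version. The neqc function (offset 16) of limma 3.58.1 under R 4.3.3 corrected the background, normalized by quantiles and took log2. A probe entered the tests if its detection p was below 0.05 on 3 or more arrays, and the brightest kept probe stood for its gene in tests and counts over 28 members (for Apoc2, the dimmer of its 2 probes), whereas single values are of the brightest probe. Arrays detected 43.4% to 48.98% of probes; the number of arrays limits precision.

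The 18 arrays of E11 to E13 were fitted with 6 group means, without the E10 arrays. The threshold was an adjusted p of 0.05. In tests on simulated data of this size, genes drawn at random from all genes were changed in the E12 genotype contrast. Of these, 77 of 100 changed by 1 and 98 of 100 changed by 2 on the log2 scale were called, as were 13 unchanged genes. These shares do not hold for members near the floor or with a wide spread, such as Afp (SE 1.00) and Ttr (SE 1.17). The members and lists were chosen with earlier results of these data known. Named genes are all members, the 15 leading genes outside the set in the ranking on replicate 3 and the leading genes of each marker list.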

Additional observations from a re-analysis of the deposited data

How the results depend on the processing

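Of 420 further fits of single member calls, 391 kept their direction and side of the threshold, 29 lost the call and 0 reversed. Values on E10 p63-/- arrays depended on background correction: the member median on replicate 3 (6.08) was 4.88 under quantile normalization with no background step, 5.53 when the offset was 50, 3.9 with the authors' values and 5.45 without the detection filter, and on replicate 2 (0.74) it was 0.33, 0.49 and 0.23 under the first 3. Leaving out single p63+/- arrays put it at 6.08 to 6.16 on replicate 3, 0.77 to 0.87 on replicate 2 and -0.07 to 0.11 on replicate 1. Members called between E13 and E11 in p63+/- embryos (10) numbered 6 with the authors' values, 5 with all 24 arrays in the fit and 5 to 14 leaving out 1 array. In p63-/- embryos (5) they numbered 5 to 6 leaving out 1 array, and 9 without E11 p63+/- replicate 2 and E12 p63-/- replicate 3 together, a setting added after seeing the data. Mttp lost its call with the authors' values and with all 24 arrays (highest adjusted p = 0.432), and Apoe lost its with all 24 arrays (limma adjusted p = 0.328). Between genotypes no member passed at E11 or E12 under any alternative, and with array weights 1 did at E13 (Mttp, -0.53, limma adjusted p = 0.0414).

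Counts over all genes moved more. At E11, 69 genes became 44 with the authors' values, 116 with array weights and 25 to 78 leaving out 1 array. At E12, 32 became 19 to 39, and at E13, 41 became 238 with array weights and 23 to 43 leaving out 1 array. For the interaction, 1 gene became 0 with the authors' values or detection on at least 6 arrays, 5 with array weights and 1 to 2 leaving out 1 array. With the replicate block, 138 genes passed at E11 and 59 at E12, and the members called between genotypes stayed at 0. The block added the call of Ttr between E13 and E11 in p63+/- embryos (-2.77, limma adjusted p = 0.0363), as did array weights (limma adjusted p = 0.0376). Of 9 pairs of same-numbered samples, 7 had a correlation of deviations over 0.1 (0.07 to 0.63) and 8 correlated best with their own number. The genotypes were littermates by design, but the labels do not say that a number marks a litter. The main tests therefore used no pairing, and a pairing by litter may have been left out. The causes were not tested.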

Other observations

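E12 p63-/- replicate 2 stood apart in another way. On this array 1.8% of all genes exceeded the median of the other 5 arrays of the stage by more than 1. Of the members, Gata6 read 9.27 there, against 5.36 to 6.77 on the other E12 arrays, and Dpp4 read 7.49, against 5.33 to 5.84, while Afp (6.20) and Ttr (6.41) did not stand out.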
